A study of Mus musculus with 6 samples.

Results

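The nuclear genes for the subunits of mitochondrial complex I were followed in RNA-seq libraries of gWAT (gonadal white adipose tissue), a visceral fat depot that lies against the reproductive organs. Members were all genes whose mouse symbol starts with Nduf, followed by one of the letters a, b, c, s or v and a number. The rule found 38 of the 19790 genes in the table of read counts, of which 37 are subunit genes or close paralogs and 1, Ndufs5-ps, is annotated as a pseudogene of Ndufs5. The mice were wild-type C57BL/6 males. For 8 weeks 3 of them ate normal chow (NCD) and 3 ate a high-fat diet (HFD). Per the sample labels the mice were 6 weeks old at the start of the diet, while the study's methods give another age. The labels name no genotype difference and no treatment other than the diet. Each library was made from whole tissue of its own mouse, so adipocytes, macrophages, vessels and any neighbouring tissue were read together. Whether a lower level in such bulk RNA stems from fewer cells of a type or from less RNA per cell cannot be told apart.

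Complex I (NADH:ubiquinone oxidoreductase) is the entry point of electrons from NADH into the respiratory chain. Its hydrophilic arm reaches into the matrix and holds the N module, where NADH is oxidized, and the Q module, which passes the electrons to ubiquinone. Its membrane arm pumps protons and is built around subunits that mitochondrial DNA encodes. The other subunits are encoded in the nucleus, the conserved core subunits that bind the flavin and the iron-sulphur clusters as well as the accessory subunits around them, so their mRNAs can be read in nuclear gene counts. In white adipocytes the respiratory chain supplies ATP for lipid synthesis and turnover. The subunits encoded in mitochondrial DNA, Ndufb1 and amino acid sequences were not analysed here.

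The libraries held between 49575113 and 66360046 counts, and the members between 95 and 14558 counts in a library (median 3290), so the spread between mice, not counting error, limited the precision. In NCD replicate 1, 58.6% of all counts fell on 11 genes of seminal vesicle secretion, and in NCD replicates 2 and 3 the share was 11.2% and 2.30%. HFD replicates 1, 2 and 3 had 6, 8 and 2 such counts. The 10 adipocyte markers, among them Adipoq and Plin1, were present in all 6 libraries, and their summed level was 5631 in NCD replicate 1, the lowest of the 6 mice, in the CPM units defined next. The same library had the highest sum of smooth muscle markers, 7350 CPM against 376 to 996 CPM in the other 5. Each result is therefore given with all 6 mice and without NCD replicate 1. Levels are TMM-scaled CPM, that is read counts relative to the library's total after edgeR's TMM correction of that total, and changes are log2 fold changes of HFD over NCD. A change was called at an adjusted p under 0.05 in the quasi-likelihood test of edgeR, adjusted by Benjamini-Hochberg over all genes tested. All 38 members passed the filter on low counts.

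Most members were lower in the HFD-fed mice than in NCD replicates 2 and 3, and NCD replicate 1 lay near the HFD-fed mice. The summed level of the 38 members was 2087, 3104 and 3585 CPM in NCD replicates 1, 2 and 3 and 1817, 1865 and 1860 CPM in HFD replicates 1, 2 and 3. With all 6 mice, 1 member (Ndufb11) fell, none rose and 37 did not pass the test, and over all 15241 genes tested 1.9% were called lower and 5.58% higher. An unadjusted p under 0.05 with a lower level was found for 24 members and for 13.7% of all genes, and DESeq2 called 14 members and 10.4% of its genes lower. The median log2 fold change was -0.63 over the members and -0.08 over all genes, and 37 of the 38 members had a negative value. With scaling by total counts only, under which the median of all genes moved to 0.44, the median of the members was -0.21 and 28 of 38 were negative, while 37 lay under the median of all genes. Without NCD replicate 1, 29 members fell, none rose and 9 did not pass, against 10.1% of the 15510 genes called lower and 10.7% called higher. The median was then -0.78 over the members and 0.02 over all genes. Every HFD value lay under every NCD value in 21 members with all 6 mice, as in 18.7% of all genes, and in 37 members without NCD replicate 1, as in 29.1% of all genes. The 29 calls rested on 2 NCD-fed mice. With NCD replicate 2 or 3 also left out, a lone NCD-fed mouse remained, and the median of the members was -0.87 and -0.67. That mouse was assumed to vary like the HFD-fed mice. The calls and p-values of these 2 fits therefore hold no spread between NCD-fed mice, and no conclusion is drawn from them. Leaving out NCD replicate 2 as well gave 12 calls, and leaving out NCD replicate 3 instead gave none (0 of 38) in edgeR, with an unadjusted p under 0.05 for 28 members and for 12.3% of all genes in the lower direction.

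**Figure D1:**
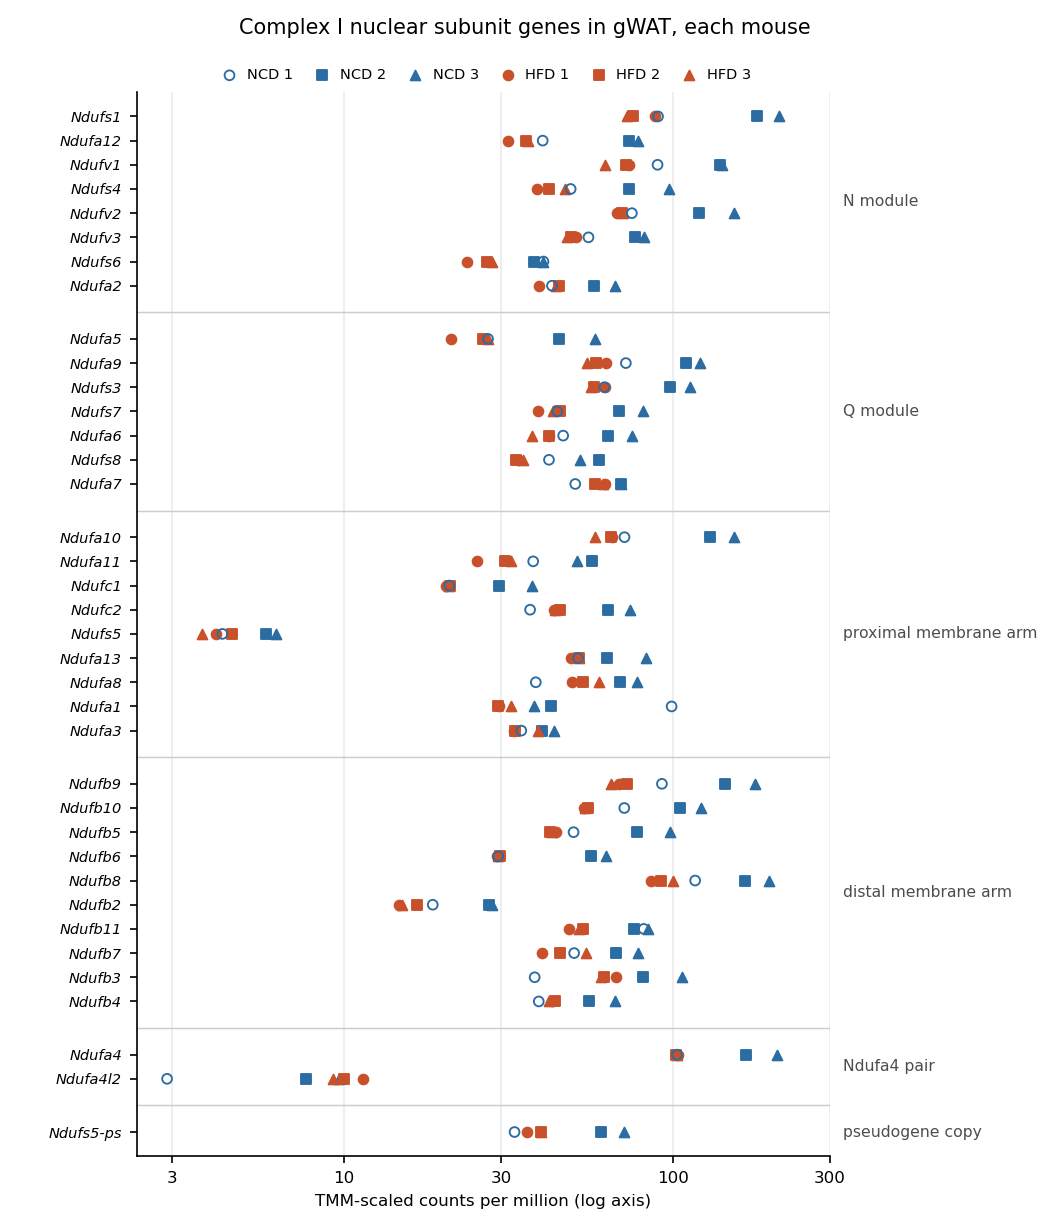
TMM-scaled CPM (log axis) of 37 members in each of the 6 mice, by place in the complex; blue points are NCD, red points HFD, and the open circle is NCD replicate 1. HFD points lie to the left of NCD replicates 2 and 3 in 36 of those drawn, all but Ndufa4l2, and the open circle lies between the groups or among the HFD points in most of them.

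The mice kept a similar order in most members. NCD replicate 3 was the highest of the 6 mice in 32 members. NCD replicate 1 was the lowest NCD-fed mouse in 35 members, and in 24 its level was between 0.8 and 1.2 times the HFD mean. Relative to the mean of NCD replicates 2 and 3, its level ranged from 0.334 times (Ndufa4l2) to 2.47 times (Ndufa1), with a median of 0.625. The HFD mean ranged from 40.3% (Ndufs1) to 118% (Ndufa4l2) of the mean of NCD replicates 2 and 3, with a median of 57.6%, and it was under 50% in 11 members.

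The genes of this pathway are known to be controlled by NRF1, GABP (an ETS factor), ERRα and YY1, so their promoters were searched for the motifs of these factors. They were read from RefSeq (build GRCm38.p6, the build named in the submitters' processing notes as GRCm38), as 250 bases before to 50 after each gene's start, and 32 of 38 members had one. The NRF1 motif GCGCANGCG, searched on both strands, was found in 8 of the 32 (25.0%) and in 7.03% of the 27025 genes with such a window. The YY1 motif AANATGGCG was in 7 (21.9%, against 2.76%), the ETS motif CCGGAAG in 4 (12.5%, against 9.93%), and the ERR motif TCAAGGTCA in none (against 0.466%). Matches to YY1 in Ndufa9, Ndufc1, Ndufs4, Ndufs6 and Ndufs7 began at bases 23 to 36 from the start, inside the transcribed part. Those in Ndufa7 and Ndufb11 lay before the start. The 8 members with an NRF1 match had a median log2 fold change of -0.66 without NCD replicate 1 (range -1.05 to -0.43), and the 24 without a match -0.82 (range -1.17 to -0.19), with overlapping ranges. A match of letters is a description of the sequence and no evidence of binding. The promoters of 4 members are shown, 3 with more than one NRF1 match and, for contrast, that of Ndufa12, which had none. NRF1 matches are in capitals, each sequence runs 5′ to 3′ along the gene's strand and ends at the base before its start.

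Ndufb4, with the most NRF1 matches (starting 191, 79 and 22 bases before the start; chr16:37654369-37654618, minus strand; log2 fold change -0.50):
Ndufb4: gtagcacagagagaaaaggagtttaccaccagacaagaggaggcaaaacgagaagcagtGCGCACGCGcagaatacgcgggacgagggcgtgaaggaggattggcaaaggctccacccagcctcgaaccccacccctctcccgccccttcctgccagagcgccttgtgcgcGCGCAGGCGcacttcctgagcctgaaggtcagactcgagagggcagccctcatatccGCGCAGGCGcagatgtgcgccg
Ndufa8, with matches starting 29 and 9 bases before the start (chr2:36049339-36049588, minus strand; -0.43):
Ndufa8: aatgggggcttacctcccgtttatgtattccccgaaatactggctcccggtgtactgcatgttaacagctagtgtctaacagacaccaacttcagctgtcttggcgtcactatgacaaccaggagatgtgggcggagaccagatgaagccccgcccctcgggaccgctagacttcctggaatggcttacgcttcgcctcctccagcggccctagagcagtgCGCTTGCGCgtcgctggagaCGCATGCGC
Ndufa11, with 2 overlapping matches, 1 on each strand, starting 60 and 59 bases before the start (chr17:56717512-56717761, plus strand; -0.85):
Ndufa11: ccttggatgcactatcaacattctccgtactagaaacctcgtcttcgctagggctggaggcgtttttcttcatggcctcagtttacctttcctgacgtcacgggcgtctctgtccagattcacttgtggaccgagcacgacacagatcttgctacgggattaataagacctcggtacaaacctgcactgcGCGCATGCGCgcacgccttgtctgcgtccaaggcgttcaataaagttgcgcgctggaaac
Ndufa12, with no match to any of the 4 motifs (chr10:94198785-94199034, plus strand; -1.13):
Ndufa12: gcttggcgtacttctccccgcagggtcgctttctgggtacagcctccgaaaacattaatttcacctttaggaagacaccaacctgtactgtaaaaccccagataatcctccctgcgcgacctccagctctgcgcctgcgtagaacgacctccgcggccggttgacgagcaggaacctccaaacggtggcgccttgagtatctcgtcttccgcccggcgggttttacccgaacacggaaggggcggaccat

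In the N module, all 8 members fell without NCD replicate 1, with a median log2 fold change of -0.98, and none of the 8 passed with all 6 mice (median -0.77). Ndufs1, the largest core subunit and a carrier of iron-sulphur clusters, lies at chr1:63143592-63176822 of GRCm38. NCD replicates 1, 2 and 3 had 90.2, 181 and 210 CPM, and HFD replicates 1, 2 and 3 had 88.1, 75.9 and 72.4 CPM. Values by mouse keep this order from here on. The diets did not overlap, but NCD replicate 1 was just above the highest HFD-fed mouse. The log2 fold change was -1.30 (SE 0.141, adjusted p = 0.00686 from edgeR) without that mouse, the lowest value of any member, and -1.03 (SE 0.326, adjusted p = 0.103 from edgeR) with it. Ndufv1, which binds NADH and the flavin, was at 89.9, 139 and 141 CPM on NCD and at 73.6, 72.0 and 62.3 CPM on HFD. Ndufv2, its iron-sulphur partner, was at 75.1, 120 and 154 CPM on NCD and at 67.5, 70.0 and 70.4 CPM on HFD. In both, all 3 HFD-fed mice lay under all 3 NCD-fed mice, with log2 fold changes of -1.0 (SE 0.118) and -0.97 (SE 0.142) without NCD replicate 1. Among the accessory subunits of the module, Ndufa12, whose promoter is shown above, had -1.13 and Ndufs4, whose loss is a known cause of Leigh-like disease in mice, -0.99 on the same scale. Ndufs6 was unlike these in that NCD replicate 1 stood with its group, at 40.4, 37.7 and 40.3 CPM on NCD and 23.7, 27.2 and 28.1 CPM on HFD. Its log2 fold change was -0.58 with all 6 mice (adjusted p = 0.0527 from edgeR) and -0.55 without NCD replicate 1 (adjusted p = 0.0338).

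In the Q module, 7 of 8 members fell without NCD replicate 1 (median -0.82), and none of the 8 passed with all 6 mice (median -0.62). Ndufs3, a core subunit of the hydrophilic arm, had 61.9, 98.1 and 113 CPM on NCD and 62.1, 57.4 and 56.3 CPM on HFD. Here NCD replicate 1 fell inside the HFD range, so the diets overlapped. Ndufs7, which carries the last iron-sulphur cluster before ubiquinone, had 44.5, 68.5 and 81.0 CPM on NCD and 38.8, 45.4 and 43.1 CPM on HFD, and NCD replicate 1 again lay inside the HFD range. Ndufs8, which carries iron-sulphur clusters next to it, had 42.0, 59.6 and 52.3 CPM on NCD and 33.7, 33.3 and 35.0 CPM on HFD, with no overlap. The log2 fold changes of Ndufs3, Ndufs7 and Ndufs8 without NCD replicate 1 were -0.84, -0.80 and -0.71, with standard errors from 0.108 to 0.132. All 7 core subunits of the N and Q modules therefore passed without that mouse (adjusted p from 0.00686 to 0.0149 in edgeR's test). With it, none passed (0 of 7), though all 7 had an unadjusted p under 0.05.

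Ndufa7, an accessory subunit, was the Q module member that did not pass. It had 50.5, 69.8 and 69.4 CPM on NCD and 62.1, 58.0 and 61.4 CPM on HFD, so that NCD replicate 1 was the lowest of the 6 mice and the other 2 NCD-fed mice were the highest. The log2 fold change was -0.19 (SE 0.10, adjusted p = 0.227 from edgeR) without NCD replicate 1 and -0.06 (SE 0.169, adjusted p = 0.821) with it. It turned to 0.38 with scaling by total counts only and to 0.025 with that scaling without NCD replicate 1.

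The proximal part of the membrane arm had the fewest calls of the 4 places in the complex without NCD replicate 1. There 4 of its 9 members fell (median -0.53), and none of the 9 passed with all 6 mice (median -0.40). Ndufa10, a subunit related to nucleoside kinases, had 71.3, 130 and 154 CPM on NCD and 65.5, 64.7 and 58.1 CPM on HFD. The groups did not overlap, and the log2 fold change was -1.17 (SE 0.129, adjusted p = 0.00688 from edgeR) without NCD replicate 1 and -0.92 (SE 0.293, adjusted p = 0.104) with it. Ndufa11, Ndufc1 and Ndufc2 also fell without NCD replicate 1, by 0.85, 0.68 and 0.62 on the log2 scale.

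At the other end stood Ndufa3, Ndufa8 and Ndufa1, small or twin-cysteine subunits of the same region. Ndufa3 had 34.6, 40.0 and 43.4 CPM on NCD and 32.8, 33.0 and 38.8 CPM on HFD, and its values overlapped. Its log2 fold change was -0.24 (SE 0.129, adjusted p = 0.225 from edgeR) without NCD replicate 1. Ndufa8, with a pair of NRF1 matches in its promoter, had 38.3, 69.2 and 77.9 CPM on NCD and 49.3, 53.4 and 59.5 CPM on HFD. NCD replicate 1 was the lowest of the 6 mice, and the value of -0.43 (SE 0.133) without it did not pass (adjusted p = 0.0734 from edgeR).

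Ndufa1, on the X chromosome at chrX:37187588-37191238, was the member in which NCD replicate 1 stood out on the high side. It had 99.2 CPM in that mouse, against 42.5 and 37.9 CPM in NCD replicates 2 and 3 and 29.5, 29.4 and 32.2 CPM on HFD. All 3 HFD-fed mice lay under all 3 NCD-fed mice. The log2 fold change was -0.98 (SE 0.386, adjusted p = 0.156 from edgeR) with all 6 mice and -0.39 (SE 0.115, adjusted p = 0.0641) without NCD replicate 1, so 1 library set most of its size. That library also held the largest share of seminal vesicle counts and the highest sums of epithelial (1449 CPM against 35.0 to 163 CPM in the other 5) and smooth muscle markers. Their part in the Ndufa1 level was not tested.

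**Figure D2:**
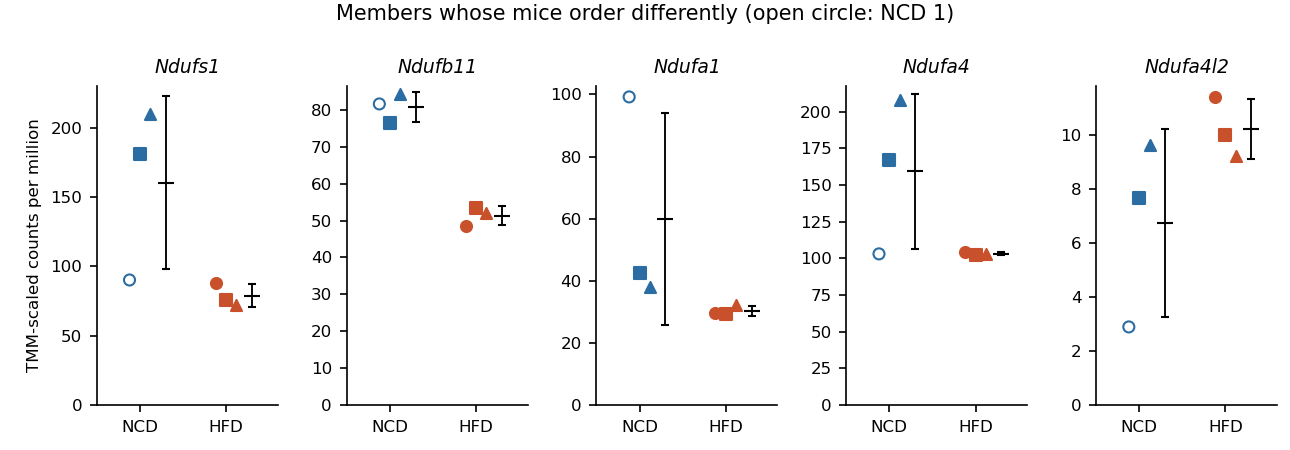
TMM-scaled CPM of 5 members in each mouse (blue NCD, red HFD, open circle NCD replicate 1, bars mean ± SD, n = 3 mice per diet); each panel has its own axis starting at 0. NCD replicate 1 is near the HFD-fed mice in Ndufs1 and Ndufa4, with its own diet in Ndufb11, above all others in Ndufa1 at 99.2 CPM and below all others in Ndufa4l2 at 2.89 CPM.

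In the distal part of the membrane arm, 8 of 10 members fell without NCD replicate 1 (median -0.90), and 1 with all 6 mice (median -0.72). Ndufb11 fell in both fits and was the single call with all 6 mice. Mutations of its human ortholog are a known cause of X-linked disease, and the mouse gene lies at chrX:20615326-20617619. It had 81.6, 76.4 and 84.3 CPM on NCD, with a mean of 80.8 ± 4.01 (SD, n = 3 mice), and 48.5, 53.4 and 52.0 CPM on HFD, with a mean of 51.3 ± 2.54 (SD, n = 3 mice). The diets did not overlap and NCD replicate 1 lay within its group. That mouse was the lowest NCD-fed mouse in 35 members, and Ndufb11, Ndufs6 and Ndufa1 were the exceptions. Relative to the other members, Ndufb11 was thus high in that library, the one with the largest share of seminal vesicle counts. The cause was not tested. The log2 fold change was -0.65 (SE 0.125, adjusted p = 0.0366 from edgeR) with all 6 mice and -0.63 (SE 0.112, adjusted p = 0.0174) without NCD replicate 1. Leaving out NCD replicate 2, NCD replicate 3 or HFD replicate 1, 2 or 3 instead kept the value between -0.70 and -0.60. The adjusted p from edgeR was then 0.0917 to 0.147, so the call was lost in each of these 5 fits. Few genes of any kind passed in them, 2 to 7 in the whole table, against 1139 with all 6 mice. Without the filter on low counts the value was -0.64 (adjusted p = 0.0538 from edgeR), and with scaling by total counts only it was -0.14 (adjusted p = 0.825). Its standard error was the smallest of the 38 members, and 17 members had a lower log2 fold change without passing.

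Ndufb9 had the second lowest value of all members, with 92.7, 144 and 178 CPM on NCD and 68.7, 72.7 and 64.9 CPM on HFD. The groups did not overlap, and the log2 fold change was -1.21 (SE 0.138, adjusted p = 0.00735 from edgeR) without NCD replicate 1 and -1.01 (SE 0.256, adjusted p = 0.0656) with it. Ndufb8, whose protein stands for complex I on the study's immunoblots, had 117, 166 and 197 CPM on NCD and 85.8, 92.1 and 100 CPM on HFD. Again no HFD-fed mouse reached an NCD-fed mouse, and the change was -0.96 (SE 0.142, adjusted p = 0.0119 from edgeR) without NCD replicate 1 and -0.79 (SE 0.225, adjusted p = 0.0827) with it. No protein was measured in these libraries. The study's text describes its NDUFB8 blots for a gene knockout, overexpression and a lipid treatment, not for NCD against HFD. Ndufb3 and Ndufb7 missed the threshold without NCD replicate 1, with -0.56 and -0.63 on the log2 scale (adjusted p = 0.0517 and 0.0522 from edgeR).

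Ndufa4 and Ndufa4l2 are paralogs. The NDUFA4 protein was first assigned to complex I and later found with cytochrome c oxidase, and Ndufa4l2 is known as a hypoxia-induced gene. Ndufa4 had the highest level per length of the 37 members with a known exon length, 300 CPM per kilobase in NCD replicates 2 and 3. It was measured at 103, 167 and 208 CPM on NCD and at 104, 102 and 103 CPM on HFD, and NCD replicate 1 was level with the HFD-fed mice. Its log2 fold change was -0.85 (SE 0.137, adjusted p = 0.0144 from edgeR) without NCD replicate 1 and -0.63 (SE 0.267, adjusted p = 0.180) with it. Ndufa4l2 was the only member with a positive value in both fits. It had 2.89, 7.66 and 9.64 CPM on NCD and 11.4, 10 and 9.23 CPM on HFD. The groups overlapped, and the log2 fold change of 0.60 (SE 0.439, adjusted p = 0.396 from edgeR) with all 6 mice became 0.25 (SE 0.187, adjusted p = 0.374) without NCD replicate 1.

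The ratio of the 2 paralogs is taken inside a library and is free of the scaling between libraries. The log2 ratio of Ndufa4l2 to Ndufa4 counts was -5.15, -4.44 and -4.43 in NCD replicates 1, 2 and 3 and -3.19, -3.35 and -3.48 in HFD replicates 1, 2 and 3. All 3 HFD-fed mice lay above all 3 NCD-fed mice, by 1.33 on average. An exact permutation test (two-sided) gave p = 0.1. With 3 mice on each diet no smaller p can be had, so this design cannot pass 0.05. Leaving out any one mouse kept the difference between 1.09 and 1.46.

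Ndufs5-ps is annotated as a copy of Ndufs5, and the counts of both are uncertain, because the assignment of reads that match both was not stated. Ndufs5 received only 8.02% to 11.4% of the counts of the pair in a library. Ndufs5 had 3.68 to 6.18 CPM and Ndufs5-ps 33.0 to 70.9 CPM over the 6 mice, with log2 fold changes of -0.53 (not passed) and -0.76 (passed) without NCD replicate 1. With both summed into 1 gene, 29 of 37 genes were lower without NCD replicate 1. The copies Ndufb4b and Ndufb4c are not among the members found, so whether they take up reads of Ndufb4 cannot be told here. Ndufb4 itself fell by 0.50 on the log2 scale without NCD replicate 1.

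**Figure D3:**
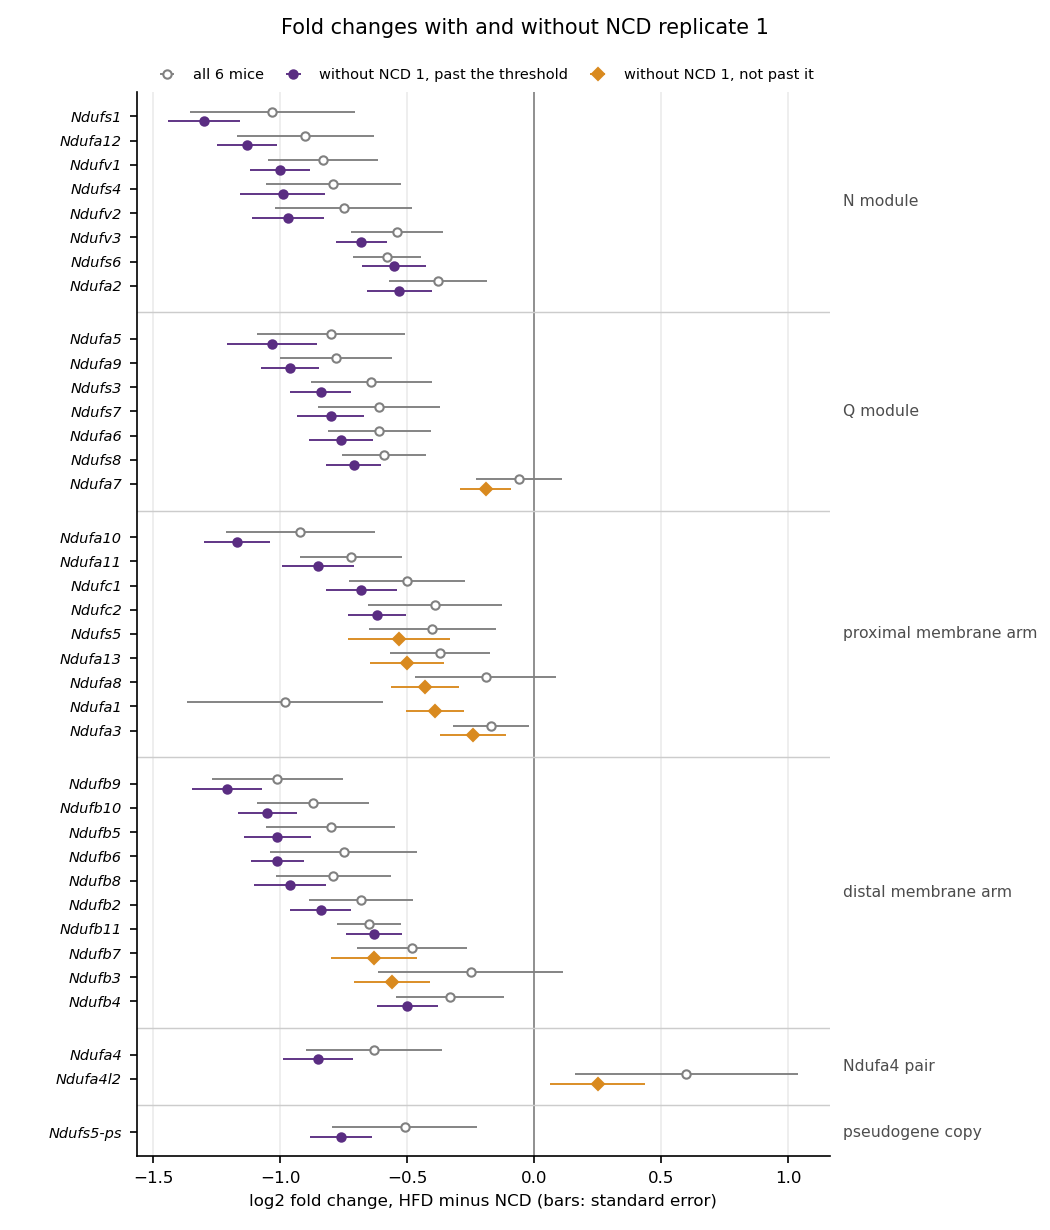
Log2 fold change (HFD minus NCD) of 37 members with its standard error, from all 6 mice (grey open circles) and without NCD replicate 1 (purple, past the adjusted p of 0.05; orange diamonds, not past it), grouped by place in the complex. Standard errors shrink without NCD replicate 1, and 5 of the 9 members that did not pass belong to the proximal membrane arm.

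The members did not all move by one factor. Over the 36 members other than Ndufa4l2 and the pseudogene, the SD of the log2 difference between HFD and NCD replicates 2 and 3 was 0.273, against 0.151 between NCD replicates 3 and 2 and 0.12 to 0.182 between HFD-fed mice. Taken relative to the mean log2 level of the members in the same library, Ndufs1 was lower on HFD than in NCD replicates 2 and 3 by a log2 difference of -0.55, Ndufb9 by -0.45 and Ndufa10 by -0.41. Ndufa4l2, Ndufa7 and Ndufa3 were higher on this scale, by 1.01, 0.56 and 0.50. These relative values do not change with the scaling of libraries. The spread was largest for NCD replicate 1 against the other 2 NCD-fed mice (SD 0.43). Core subunits had a median log2 fold change of -0.97 and accessory subunits of -0.68 without NCD replicate 1, with 7 of 7 and 20 of 28 called. No test was made of the difference between places or between core and accessory subunits.

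Complex I is put together with the help of assembly factors, which are not part of the finished complex. Of 18 listed factors, 1 fell with all 6 mice (median log2 fold change -0.37). This was Ecsit, with -0.78 (adjusted p = 0.0398 from edgeR). Without NCD replicate 1, 7 fell, none rose and 11 did not pass (median -0.47). Acad9, an acyl-CoA dehydrogenase also needed for assembly, had 33.4, 67.1 and 75.1 CPM on NCD and 35.9, 35.9 and 36.7 CPM on HFD and fell by 0.96 on the log2 scale without NCD replicate 1. Foxred1, an oxidoreductase needed for assembly, fell by 0.42 in the same fit. Ndufaf8 and Tmem126b had values of 0.12 and 0.05 and did not pass. Ndufab1, the mitochondrial acyl carrier protein, is bound to the complex but its symbol is outside the rule. It had 42.9, 99.9 and 118 CPM on NCD and 51.4, 45.2 and 40.9 CPM on HFD. Its log2 fold change was -1.23 (SE 0.143, adjusted p = 0.00756 from edgeR) without NCD replicate 1 and -0.92 (adjusted p = 0.162) with it.

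The nuclear subunits of complexes II to V were low in the same libraries. Of these 38 genes, 33 fell without NCD replicate 1, none rose and 5 did not pass (median log2 fold change -0.77, against -0.78 for the members). With all 6 mice 1 fell, Uqcrc2 of complex III (median -0.58). The mean log2 level of 36 complex I members (Ndufa4 counted among them) minus that of complexes II to V was -1.09, -1.16 and -1.18 in NCD replicates 1, 2 and 3 and -1.20, -1.12 and -1.16 in HFD replicates 1, 2 and 3. The 2 diets overlapped on this ratio, which differed by -0.02 between their means. Against 10 genes of mitochondrial mass, such as Cs (citrate synthase) and Vdac1, the same difference was -1.08, -1.19 and -1.10 on NCD and -1.40, -1.16 and -1.20 on HFD, again with overlap. Of these 10 genes, 7 fell without NCD replicate 1 and none with all 6 mice.

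Markers of cell types differed between the same libraries. The summed level of the 10 adipocyte markers was 5631, 21143 and 28971 CPM in NCD replicates 1, 2 and 3 and 15799, 16428 and 12459 CPM in HFD replicates 1, 2 and 3. It was lower in NCD replicate 1 and in the HFD-fed mice than in NCD replicates 2 and 3. Cfd (adipsin, a secreted protease) carried the order of the HFD-fed mice, and without it the sums were 3756, 14802 and 20151 CPM on NCD and 15407, 15376 and 11800 CPM on HFD, so that HFD replicates 1 and 2 lay above NCD replicate 2. Without NCD replicate 1, 5 of the 10 markers fell, from -3.42 (Cfd) to -0.95 (Lipe), and none rose. The 5 that did not pass were Cidec (-0.74), Adipoq (-0.56), Fabp4 (-0.04), Pnpla2 (0.01) and Lep (0.78). With all 6 mice none passed. The mean log2 level of complex I minus that of the adipocyte markers was -2.73, -4.16 and -4.33 on NCD and -4.26, -4.23 and -3.72 on HFD. The diets overlapped on this ratio. The HFD mean was -4.07, against -3.74 over all 3 NCD-fed mice and -4.25 over NCD replicates 2 and 3, so the sign of the difference turned from -0.33 to 0.18 without NCD replicate 1. With Cfd left out of the markers, the difference was -0.62 with all 6 mice and -0.11 without NCD replicate 1. Summed macrophage markers were 746, 956 and 836 CPM on NCD and 5158, 2468 and 3018 CPM on HFD, and 9 of 10 rose without NCD replicate 1 and 5 of 10 with all 6 mice. The part of a changed cell makeup in the complex I levels was not tested. Genes of brown or beige adipocytes summed to only 2.53 to 7.33 CPM in the 6 libraries.

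**Figure D4:**
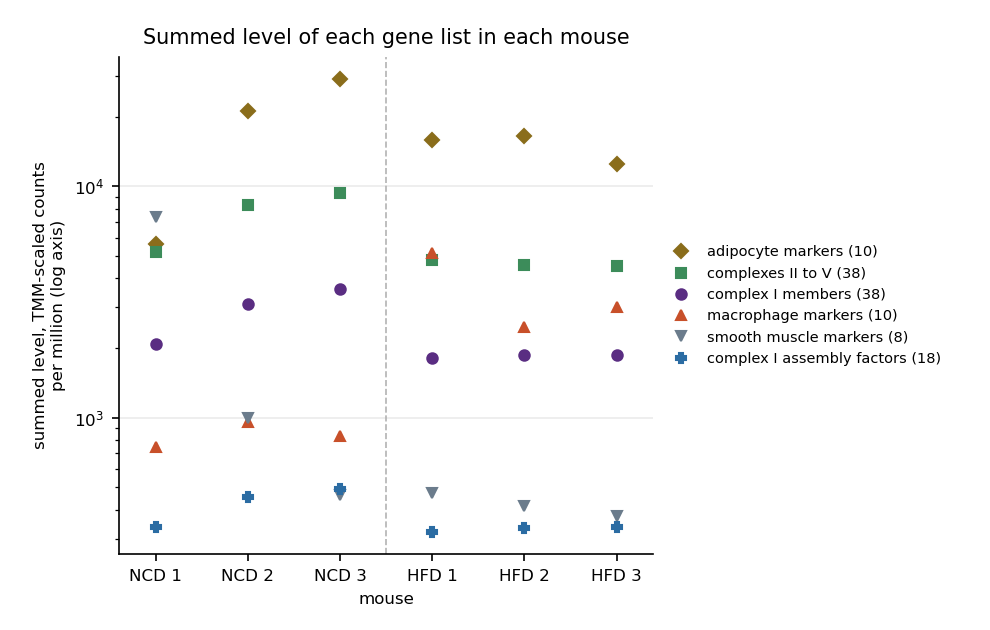
Summed TMM-scaled CPM (log axis) of 6 gene lists in each mouse, with the number of genes in brackets and a dashed line between the diets. Complex I, complexes II to V and the adipocyte markers (with Cfd among them) all have their highest sums in NCD replicates 2 and 3, while macrophage markers are highest in the 3 HFD-fed mice and smooth muscle markers in NCD replicate 1.

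Transcript levels of the factors whose motifs were searched, and of the coactivator PGC-1α, were read in the same libraries. Of 7 listed regulators, 2 fell without NCD replicate 1 and none passed with all 6 mice. Ppargc1a, which encodes PGC-1α, had 2.13, 6.64 and 6.92 CPM on NCD and 2.51, 1.68 and 0.861 CPM on HFD. Its log2 fold change was -2.0 (SE 0.442, adjusted p = 0.0309 from edgeR) without NCD replicate 1 and -1.64 (adjusted p = 0.134) with it. Esrra, the gene of ERRα, had -0.46 (adjusted p = 0.0387 from edgeR) without NCD replicate 1. Nrf1 and Gabpa had 0.21 and 0.15 in the same fit and did not pass, and Yy1 had -0.08.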

How the data were processed

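RNA of gWAT of 3 NCD-fed and 3 HFD-fed mice was sequenced with the TruSeq mRNA kit (stranded, per the labels). The authors deposited raw read counts per gene for each mouse, with NCBI gene identifiers and no normalization. The submitters' processing notes name bcl2fastq 2.20.0, Trimmomatic, HISAT2 2.1.0, StringTie 1.3.4d, DESeq2 and the builds mm10 and GRCm38, without their roles. The treatment of reads that match several genes is not stated.

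Symbols were paired with 19742 of 19790 identifiers through NCBI's annotation of GRCm38.p6, and exon lengths came from GENCODE vM21. Genes were filtered with filterByExpr (minimum count 10, minimum total 15), which left 15241 genes with 6 mice and 15510 without NCD replicate 1. They were scaled by TMM and tested for HFD against NCD with edgeR 4.0.16 (glmQLFit, glmQLFTest; R 4.3.3), with Benjamini-Hochberg adjustment over all genes kept. The SE of a log2 fold change is its size over the root of F. P-values measure the spread between separate mice. The ratio of Ndufa4l2 to Ndufa4 was taken on log2(count + 0.5). The procedure was run on simulated counts in which all libraries shared the same mean levels apart from set changes. No outlier library like NCD replicate 1 was simulated, so the run does not bear on calls that depend on it. No pair of replicates agreed within sampling noise (lowest chi-square over its degrees of freedom 111), so each library was counted once.

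The members, gene lists and tests were chosen with earlier results of these data known. Values in every mouse are given for the core subunits (1 member is counted in the totals but not reported here), Ndufb8, Ndufa4, Ndufa4l2, members past the threshold with 6 mice, and the 3 lowest and 3 highest fold changes of each fit. Ndufs6, the assembly factors and the regulators named were chosen after their values were seen. Alternatives were other scalings, no filter, DESeq2 1.42.0, limma 3.58.1 on log2(CPM + 1), the replicate number as a block, and leaving out each mouse. Summing Ndufs5 with its pseudogene, leaving out a further mouse without NCD replicate 1, single members without that mouse, and the adipocyte markers without Cfd were added after seeing the data. Figures were drawn with matplotlib 3.10.9.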

Additional observations from a re-analysis of the deposited data

How the results depend on the processing

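With all 6 mice, the number of members called lower was 1 with edgeR and 14 with DESeq2 (which called 3853 genes in all, against 1139 with edgeR). It was 0 with total counts only, total counts without the seminal vesicle genes, no filter on low counts, or the replicate number as a block. Over the whole table these settings called 959, 1429, 803 and 12 genes, in the same order. Leaving out NCD replicate 1 gave 29 calls, and 3234 genes were then called in all. Leaving out any other mouse gave 0 calls among the members, and only 2 to 7 genes were then called in the whole table. The median log2 fold change of the members was -0.21 with total counts only and from -0.78 to -0.50 with one mouse left out. Without NCD replicate 1, the 29 calls became 21 to 34 under other scalings, filters and tools (34 with DESeq2, which called 14.5% of its genes lower), and 21 of the 29 members passed in all 7 of these. With HFD replicate 1, 2 or 3 left out as well there were 29, 21 and 25 calls, and 3865, 1712 and 1912 genes were called in all. Leaving out NCD replicate 2 or 3 instead gave medians of -0.87 and -0.67. The lone NCD mouse was there assumed to vary like the HFD-fed mice, so no conclusion is drawn from the calls of these 2 fits. Without NCD replicate 1 alone, the median was -0.57 with total counts only. No member was called higher under any alternative run (0 of 38). The cause of these shifts was not tested.

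Signs of members that had not passed reversed with total counts only, to 0.069 for Ndufa13, 0.057 for Ndufa2, 0.30 for Ndufa3, 0.38 for Ndufa7, 0.20 for Ndufa8, 0.10 for Ndufb3, 0.093 for Ndufb4, 0.0054 for Ndufc2 and 0.043 for Ndufs5. Ndufa7 also turned to 0.036 with total counts without the seminal vesicle genes and to 0.025 with total counts only without NCD replicate 1. With one mouse left out, Ndufa7 ranged from -0.19 to 0.024 (above 0 without NCD replicate 2 or 3), Ndufa8 from -0.43 to 0.023 and Ndufb3 from -0.56 to 0.10 (both above 0 without NCD replicate 3). The median over members stayed 0.45 to 0.91 below that over all genes in every fit run.

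The replicate numbers did not pair the mice (correlations of same-numbered mice from -0.0565 to 0.00965). They are the numbers of the sample titles, and the deposited counts carry another number for HFD replicate 3. With the replicate number as a block the median was -0.59 and no member passed, and only 12 genes were called in the whole table. The exact sign-flip test of the Ndufa4l2 to Ndufa4 ratio, with the same pairs, gave 1.33 with p = 0.25, the smallest value it allows. The ratio's difference of 1.33 became 1.29 with a pseudocount of 10. With 3 mice per diet, 2 of them after the exclusion, the spread between mice and not the depth limits these calls.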
